A study of Drosophila melanogaster with 6 samples.

Results

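miR-959 to miR-964 are 6 *Drosophila* microRNA (miRNA) genes that lie next to each other and are known for their high expression in testis. They were followed here in ovaries of mei-p26 and wh7 mutant flies and of w1118 control flies. The members were the rows of the deposited table whose precursor was dme-mir-959, dme-mir-960, dme-mir-961, dme-mir-962, dme-mir-963 or dme-mir-964, with the 5p and the 3p arm of each, which gave 12 of the 474 rows. All 12 had at least 1 count in some library, and 7 passed the filter on low counts. The gene mutated in the mei-p26 flies, mei-P26, codes for a germline TRIM-NHL protein that works with the miRNA pathway. The wh7 flies were mutant for wuho, whose WD40 repeat product is required in germline cells. The w1118 flies were the control. All 3 genotypes had the w1118 strain background, in which the white gene is mutated, and all ovaries came from adults 7 days old. The labels do not give the mei-P26 allele, the number of flies behind a library or the time of day at dissection. Each genotype had 2 libraries.

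A miRNA precursor is a hairpin from which Dicer cuts a duplex of a 5p and a 3p strand, and usually one strand is loaded into Argonaute and kept while its partner is degraded. Genes of such a cluster can be transcribed together as a single primary transcript, so that differences in level between their arms also reflect processing, strand choice and stability. The miR-959 to miR-964 cluster is known as a fast-evolving, testis-enriched group. In adult heads it is known as a fat body cluster that cycles with the time of day and with feeding, and several of its members have been reported to repress Toll signalling in fly immunity. The annotation of a later genome release (BDGP6) places the 6 precursors on chromosome arm 2L in the order of their numbers, with 0 other named genes lying wholly between the first and the last. All 6 lie within the span of DIP-theta, which encodes a cell surface protein of the immunoglobulin superfamily, on the opposite strand and overlapping 0 of its exons. No testis was measured, so the enrichment in testis could not be checked in these libraries.

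Library totals ran from 144175 to 249262 counts, and the cluster held 253 and 412 counts in the mei-p26 libraries, 141 and 242 in the wh7 libraries, and 147 and 115 in the w1118 libraries. These were between 0.0798% and 0.165% of a library. Levels are given as CPM, counts relative to the library total after TMM scaling, which corrects each total for differences in composition. A mature arm is counted as a whole small RNA of similar length in each case, so CPM can be set side by side between arms, although adaptor ligation can favour some sequences. A count of 0 in a library allowed up to 3 counts, or 10.4 to 22.4 CPM, and this floor covers counting error only. Nothing in the labels says that the 2 libraries of a genotype came from separate flies, so the spread behind the p-values may be technical. These are bulk samples, in which fewer cells of a type and less RNA per cell cannot be told apart.

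The follicle cell list and the germline and ovary list were both detected in all 6 libraries, though not every arm was abundant. miR-318-5p had 0 to 2 counts per library. Whether these lists are limited to ovarian cells was not tested. The follicle cell list (both arms of miR-318, miR-994 and miR-989) summed to 135417 to 177668 CPM in mei-p26, 304706 to 332285 CPM in wh7 and 316630 to 379968 CPM in w1118, with 5 or 6 of its 6 arms detected in each library. The arms of the follicle cell list did not move together in mei-p26 over w1118. miR-318-3p, miR-994-5p and miR-994-3p had log2 fold changes of -2.464, -2.397 and -2.940 (edgeR adjusted p = 1.7e-07, 5.3e-07 and 8.7e-07). miR-989-3p, the most abundant of these arms in mei-p26, was at -0.401 (edgeR adjusted p = 0.192). miR-989-5p had 29 and 29 counts in mei-p26 and 2 and 11 in w1118 (edgeR adjusted p = 0.156). All 6 arms of the germline and ovary list (bantam, miR-184 and miR-7) were detected in every library. Of the 8 arms of the nervous system list, 1 or 2 were detected per library, and both arms of miR-124, the defining marker, were at 0 in all 6 libraries.

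The cluster was detected in every genotype, with miR-962-5p at its top. miR-962-5p had 69 and 100 counts in the mei-p26 libraries, 39 and 78 in the wh7 libraries, and 52 and 35 in the w1118 libraries. Its level was 315 ± 45.1 CPM in mei-p26, 309 ± 60.1 CPM in wh7 and 319.7 ± 97.2 CPM in w1118 (SD, n = 2 each). The 3 genotypes overlapped, and in the w1118 ovary it took rank 83 of the 474 rows. miR-963-5p and miR-960-5p came next. In mei-p26 and wh7 the libraries of miR-962-5p, miR-963-5p, miR-960-5p and miR-961-3p kept this order without overlap between neighbours. In w1118 miR-963-5p at 168 ± 5.50 CPM and miR-960-5p at 161 ± 16.1 CPM overlapped.

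Below these, the order was less certain. In mei-p26 the levels of miR-961-3p, miR-959-5p, miR-959-3p and miR-961-5p, between 123.8 and 85.3 CPM, overlapped from each to the next. In w1118 every arm from miR-961-3p at 76.6 ± 13.3 CPM down to miR-961-5p at 25.8 ± 16.3 CPM overlapped its neighbour in the order. miR-964, at the far end of the cluster, was the lowest precursor, with 15 of 665 counts in mei-p26 (2.26%, exact Clopper-Pearson 95% interval 1.27% to 3.69%), 10 of 383 in wh7 (2.61%, 1.26% to 4.75%) and 9 of 262 in w1118 (3.44%, 1.58% to 6.42%).

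**Figure D1:**
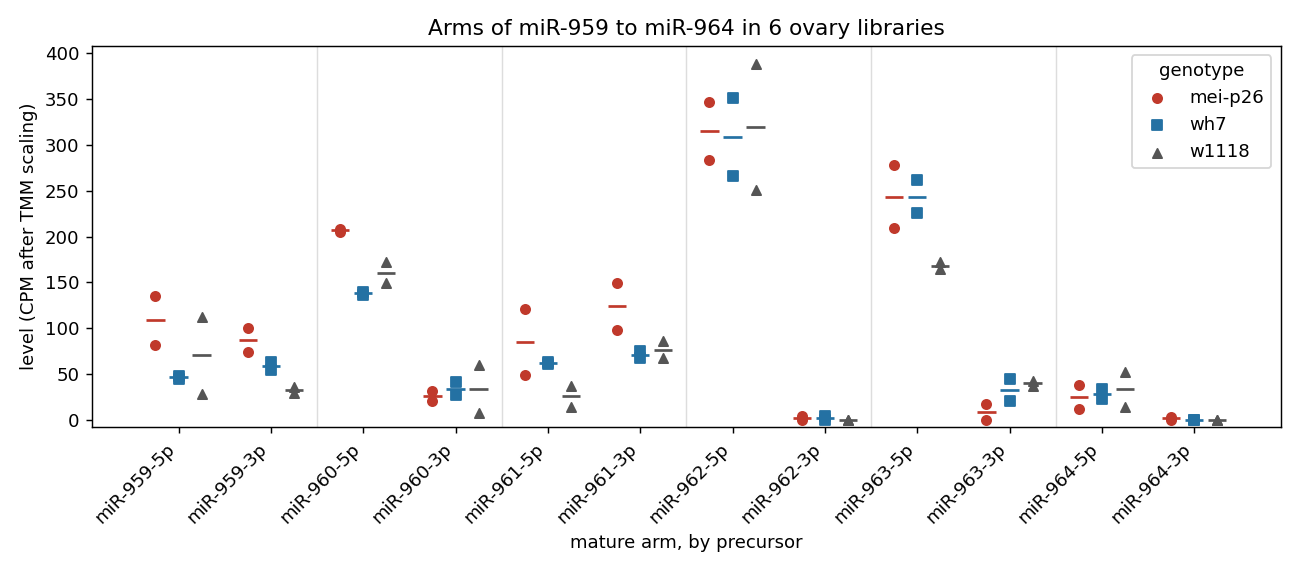
Level of each mature arm in CPM after TMM scaling, by precursor in genomic order; points are single libraries, horizontal dashes the mean of 2 libraries, and colours and symbols the genotypes. miR-962-5p stood highest, at 315 CPM in mei-p26, 309 CPM in wh7 and 319.7 CPM in w1118, and miR-962-3p and miR-964-3p had 0 counts in w1118.

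Strand use differed between the precursors. The 5p arm held 373 of 375 counts of miR-962 over all 6 libraries (99.5%, 95% interval 98.1% to 99.9%), 33 of 34 of miR-964 (97.1%, 84.7% to 99.9%), 268 of 297 of miR-963 (90.2%, 86.3% to 93.4%) and 205 of 240 of miR-960 (85.4%, 80.3% to 89.6%). In miR-959 and miR-961 both strands accumulated. The 5p arm held 95 of 173 counts of miR-959 (54.9%, 47.2% to 62.5%) and 77 of 191 of miR-961 (40.3%, 33.3% to 47.6%). These intervals cover counting error only and pool libraries that also differ among themselves.

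Among the 6 precursors, miR-963 alone had 5p shares whose pooled counting intervals did not overlap between 2 genotypes. It was 100% and 94.1% in the mei-p26 libraries, 91.7% and 85.3% in the wh7 libraries, and 81.5% and 80.0% in the w1118 libraries. Every mei-p26 library lay above every library of the other genotypes. The gap to wh7 was small, as mei-p26 replicate 2 and wh7 replicate 1 had 3p counts of 5 and 3. In miR-961 both wh7 libraries lay above all others, though narrowly, so such a separation was not particular to miR-963. Pooled, the share was 131 of 136 counts in mei-p26 (96.3%, 91.6% to 98.8%), 91 of 104 in wh7 (87.5%, 79.6% to 93.2%) and 46 of 57 in w1118 (80.7%, 68.1% to 90.0%), so that the counting intervals of mei-p26 and w1118 did not overlap. These intervals cover counting error only, while replicates of a genotype differed by more than sampling noise. No test was made, since 3p counts were between 0 and 10 per library. The 5p share of miR-961 was 41.2% (32.1% to 50.8%) in mei-p26, 46.9% (32.5% to 61.7%) in wh7 and 25.0% (10.7% to 44.9%) in w1118, and that of miR-959 was 55.7% (45.7% to 65.3%), 43.6% (27.8% to 60.4%) and 67.9% (47.6% to 84.1%) in the same order, with intervals that overlapped throughout. In w1118 the miR-959 arms split 15 to 4 in replicate 1 and 4 to 5 in replicate 2, 5p first, so the replicates themselves disagreed.

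**Figure D2:**
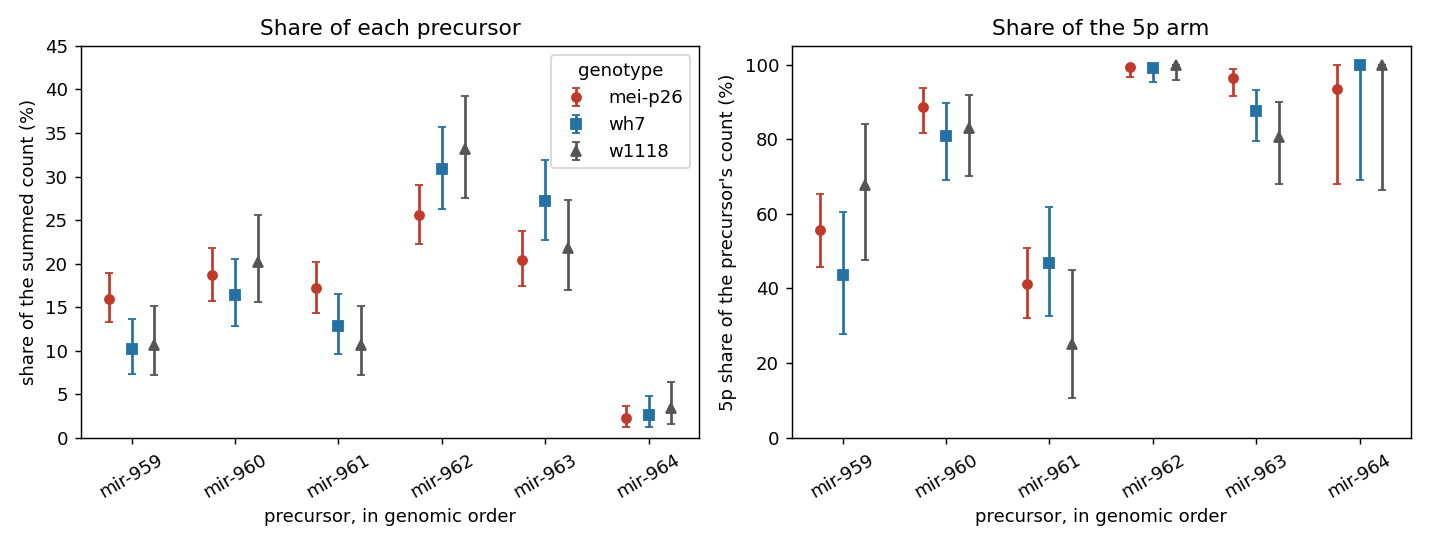
Left, share of the summed cluster count held by each precursor; right, share of each precursor's count held by its 5p arm, both in percent with exact 95% intervals from counts pooled over 2 libraries per genotype. miR-964 held 2.26% of counts in mei-p26, 2.61% in wh7 and 3.44% in w1118, and the 5p share of miR-963 was 96.3%, 87.5% and 80.7% in the same order.

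In mei-p26 against w1118 ovaries, 6 of the 7 tested arms had a log2 fold change above 0, beside 80 of all 150 rows. Of the 7 arms, 0 passed the test over all rows. The largest values were those of miR-961-5p and miR-959-3p, which reached the filter's level of 52.5 CPM before TMM scaling in 0 w1118 libraries. miR-961-5p had 12 and 35 counts in the mei-p26 libraries and 5 and 2 in the w1118 libraries. The genotypes did not overlap, with 85.3 ± 51.0 CPM for mei-p26 ovaries and 25.8 ± 16.3 CPM for w1118 ovaries (SD, n = 2 each), and the mei-p26 libraries lay far apart. The log2 fold change was 1.72 ± 0.74 (SE), with a 95% interval of 0.18 to 3.27, and did not pass (edgeR quasi-likelihood test, adjusted p = 0.0792). miR-959-3p had 18 and 29 counts in mei-p26 and 4 and 5 in w1118, again without overlap. Its level was 87.2 ± 18.9 CPM in mei-p26 ovaries against 32.9 ± 4.23 CPM in w1118 ovaries. The log2 fold change was 1.39 ± 0.65 (0.03 to 2.76, edgeR adjusted p = 0.107).

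The partner strands of miR-961-5p and miR-959-3p had smaller values. miR-961-3p had 24 and 43 counts in mei-p26 and 9 and 12 in w1118, with a log2 fold change of 0.69 ± 0.55 (edgeR adjusted p = 0.344). miR-959-5p had 20 and 39 counts in mei-p26 and 15 and 4 in w1118, so that the w1118 libraries spanned nearly the whole range, and its log2 fold change was 0.64 ± 0.63 (edgeR adjusted p = 0.448). The abundant 5p arms lay nearer to 0. miR-963-5p had 51 and 80 counts in mei-p26 and 22 and 24 in w1118 (log2 fold change 0.53 ± 0.45, edgeR adjusted p = 0.365), and miR-960-5p 50 and 60 in mei-p26 and 20 and 24 in w1118 (0.36 ± 0.46, edgeR adjusted p = 0.579). Both sets of libraries were apart in CPM. miR-962-5p had a log2 fold change of -0.02 ± 0.41 (-0.88 to 0.84, edgeR adjusted p = 0.978), whose sign turned with total-count scaling and with limma-voom.

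Of the 7 tested arms, 0 passed with edgeR, 0 with DESeq2 and 0 with limma-voom, and 2 had an unadjusted edgeR p under 0.05, namely miR-961-5p and miR-959-3p. Over all rows, 51 of 150 were called, or 34%, 32 higher and 19 lower in mei-p26, and 22 higher and 25 lower with upper-quartile scaling. Each of the 7 arms reached the filter's level of 52.5 CPM before TMM scaling in libraries of at least 2 genotypes, though miR-959-3p and miR-961-5p reached it in 0 w1118 libraries. The median log2 fold change of the 7 arms was 0.64, beside 0.08 over all 150 rows. This median leaves out the 5 member arms below the filter. With no filter, miR-960-3p was at -0.37, miR-963-3p at -2.08 and miR-964-5p at -0.39. miR-962-3p and miR-964-3p, with 1 count each in mei-p26 and 0 in w1118, were at 1.97 and 1.96. With a mean count of at least 20, which left 3 arms, the median was 0.38, beside 0.03 over all rows. In 5 of the 7 arms both mei-p26 libraries lay above both w1118 libraries, against 36% of all rows that did so. The count depended on which mei-p26 library was left out. Without mei-p26 replicate 1, miR-961-5p and miR-959-3p passed, at log2 fold changes of 2.21 and 1.59, and without mei-p26 replicate 2 these were 0.65 and 0.89, the count was 0 and the median over the 7 arms was 0.08, beside -0.25 over all rows. miR-961-5p was at 2.51 without w1118 replicate 1 and at 1.01 without w1118 replicate 2, and did not pass in either case. All 7 arms were higher in mei-p26 replicate 2 than in replicate 1, by a median of 0.45 on the log2 scale. The share of all rows that did so was not computed. The median log2 fold change over all rows moved the same way, from 0.15 without mei-p26 replicate 1 to -0.25 without mei-p26 replicate 2. With total-count scaling miR-959-3p alone passed, at 1.67.

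In wh7 against w1118 ovaries, 3 of the 7 tested arms had a log2 fold change above 0 and 4 below it, and 0 passed. Over all 150 rows, 80 were above 0. miR-961-5p had 9 and 14 counts in the wh7 libraries and 5 and 2 in the w1118 libraries, or 62.2 ± 1.14 CPM for wh7 against 25.8 ± 16.3 CPM for w1118. The genotypes did not overlap, and the log2 fold change was 1.26 ± 0.79 (-0.39 to 2.91, edgeR adjusted p = 0.306). It was 2.17 without w1118 replicate 1 and 0.59 without w1118 replicate 2. miR-959-3p had 8 and 14 counts in wh7 and 4 and 5 in w1118 (0.84 ± 0.70, edgeR adjusted p = 0.487). miR-963-5p had 33 and 58 counts in wh7 and 22 and 24 in w1118, with 243 ± 25.4 CPM for wh7 against 168 ± 5.50 CPM for w1118 (0.53 ± 0.46, edgeR adjusted p = 0.494). For both of these arms the wh7 libraries lay above those of w1118.

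The remaining tested arms had log2 fold changes below 0. miR-959-5p had 7 and 10 counts in wh7 and 15 and 4 in w1118 (-0.59 ± 0.71, edgeR adjusted p = 0.625), and the value was 0.78 without w1118 replicate 1. miR-960-5p had 20 and 31 counts in wh7 and 20 and 24 in w1118 (-0.22 ± 0.48, edgeR adjusted p = 0.828), with both wh7 libraries lower in CPM. miR-961-3p was at -0.11 ± 0.60 (edgeR adjusted p = 0.948) and miR-962-5p at -0.04 ± 0.42 (edgeR adjusted p = 0.983), with the sign of miR-962-5p turning with total-count scaling. Of the 7 arms 0 passed with edgeR, DESeq2 or limma-voom, and 0 had an unadjusted p under 0.05 with any of them, while 23 of 150 rows were called, or 15.3%, 17 higher and 6 lower in wh7 (17 and 3 with total-count scaling). The median log2 fold change was -0.04 for the 7 arms and 0.08 for all rows. Libraries did not overlap for 3 arms that were higher and 1 that was lower in wh7, against 34% and 25.3% of all rows.

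Between the mutants, the largest log2 fold change among the 7 tested arms was that of miR-959-5p. It had 20 and 39 counts in mei-p26 and 7 and 10 in wh7, with 109 ± 37.6 CPM for mei-p26 against 46.4 ± 1.95 CPM for wh7. The libraries did not overlap, and the log2 fold change was 1.23 ± 0.64 (-0.10 to 2.56, edgeR adjusted p = 0.181). It passed without mei-p26 replicate 1, at 1.54. miR-961-3p was higher in both mei-p26 libraries, with a log2 fold change of 0.80 ± 0.54 (edgeR adjusted p = 0.309), as were miR-960-5p (0.58 ± 0.46, edgeR adjusted p = 0.410) and miR-959-3p (0.56 ± 0.57, edgeR adjusted p = 0.526). miR-961-5p was at 0.47 ± 0.61 with libraries that overlapped.

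miR-963-5p had the same mean level in both mutants, 243 ± 48.3 CPM for mei-p26 and 243 ± 25.4 CPM for wh7, with a 95% interval of the log2 fold change of -0.90 to 0.89. miR-962-5p was at 0.02 ± 0.41 (-0.82 to 0.87). The signs of these values turned under several alternatives. Of the 7 arms 0 passed with edgeR, DESeq2 or limma-voom, and 0 had an unadjusted p under 0.05 with any of them, against 41 of 150 rows called, or 27.3%, 19 higher and 22 lower in mei-p26. The median log2 fold change was 0.56 for the 7 arms and 0.13 for all rows, and 4 arms had both mei-p26 libraries above both wh7 libraries, against 33.3% of all rows. The comparisons share their libraries, mei-p26 here and in the comparison with w1118, so their values are not separate measurements.

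**Figure D3:**
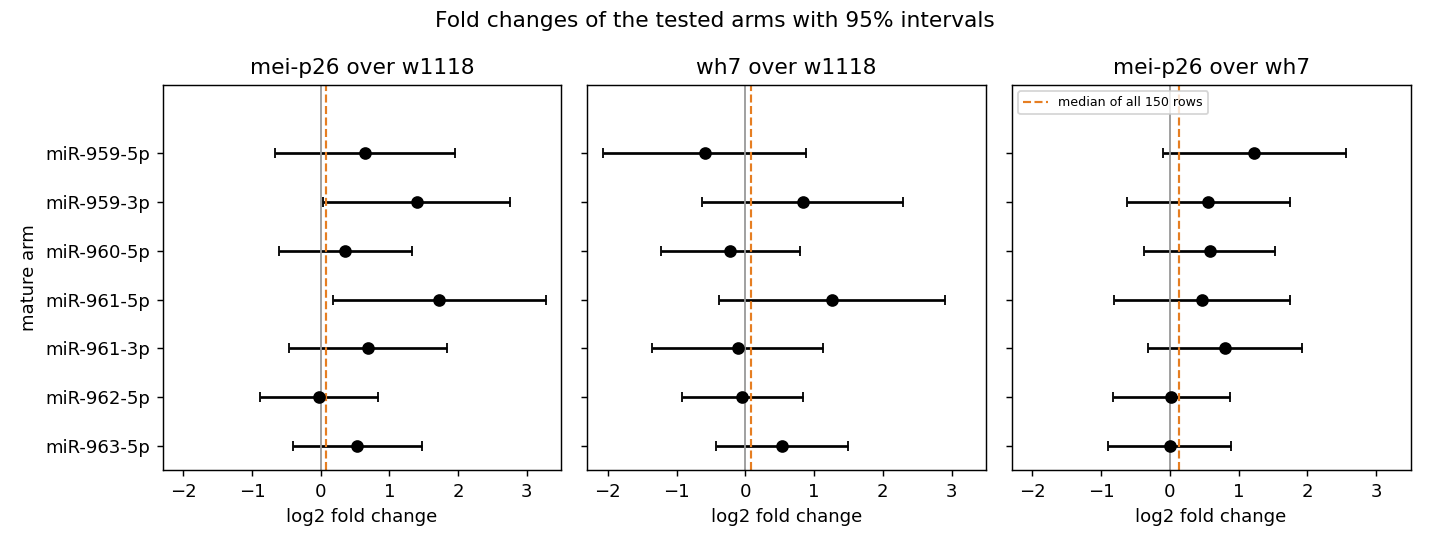
Log2 fold changes of the 7 tested arms from edgeR with 95% intervals, in mei-p26 over w1118, wh7 over w1118 and mei-p26 over wh7; the dashed line is the median of all 150 tested rows. The intervals of miR-959-3p (0.03 to 2.76) and miR-961-5p (0.18 to 3.27) in mei-p26 over w1118 lay above 0 before adjustment, and every other interval held 0.

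The other 5 arms were below the filter. miR-963-3p, the minor strand of miR-963, had 0 and 5 counts in the mei-p26 libraries, 3 and 10 in the wh7 libraries, and 5 and 6 in the w1118 libraries. In CPM it was lower in both mei-p26 libraries than in any other. The ratio of pooled counts per effective library size was 0.233 for mei-p26 over w1118, with an exact 95% counting interval of 0.0636 to 0.729, and 0.266 for mei-p26 over wh7 (0.0744 to 0.796). With no filter on low counts edgeR gave it a log2 fold change of -2.08 ± 0.94 in mei-p26 over w1118 (adjusted p = 0.112 over 286 rows) and -1.86 ± 0.92 in mei-p26 over wh7 (adjusted p = 0.195), which did not pass. Its partner miR-963-5p had values of 0.50 and -0.03 in those comparisons in the same fit.

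miR-960-3p had 5 and 9 counts in mei-p26, 6 and 6 in wh7, and 8 and 1 in w1118. miR-964-5p, the main strand of its hairpin, had 3 and 11 counts in mei-p26, 5 and 5 in wh7, and 7 and 2 in w1118. Neither arm separated any pair of genotypes. miR-962-3p had 1 count in mei-p26 replicate 1 and 1 in wh7 replicate 2, miR-964-3p had 1 in mei-p26 replicate 2, and both were at 0 in the remaining libraries, so no fold is given for them.

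Summed over all 12 arms, the cluster was at 1038 and 1429 CPM in the mei-p26 libraries, 962.5 and 1089.8 CPM in the wh7 libraries, and 1098 and 825 CPM in the w1118 libraries. The means were 1233 ± 277 CPM in mei-p26, 1026 ± 90.0 CPM in wh7 and 961.4 ± 193 CPM in w1118 (SD, n = 2 each). The lower mei-p26 library lay below the higher library of each other genotype, so the ratios of means, 1.28 for mei-p26 over w1118 and 1.07 for wh7 over w1118, were within the spread between libraries. miR-959 held 15.9% of it in mei-p26 (13.2% to 18.9%), 10.2% in wh7 (7.34% to 13.7%) and 10.7% in w1118 (7.22% to 15.1%), and miR-962 25.6% in mei-p26 (22.3% to 29.1%), 30.8% in wh7 (26.2% to 35.7%) and 33.2% in w1118 (27.5% to 39.3%), with overlapping counting intervals.

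Other testis-enriched miRNA groups are given by their levels. Most of their rows that passed the filter did so only through the genotype in which they were high. Of the 18 rows of the miR-972 to miR-979 cluster, 2 passed. The miR-303 cluster (miR-303 with miR-982 to miR-984) summed to 3228 to 4513 CPM in mei-p26, 176 to 218 CPM in wh7 and 108 to 202 CPM in w1118. miR-983-5p, its most abundant arm, was at 2266 ± 489 CPM in mei-p26, 113 ± 13.6 CPM in wh7 and 103 ± 65.1 CPM in w1118, with the same counts listed for each of its 2 precursors. In the group of miR-991, miR-992 and miR-2498, miR-991-3p had 5856 and 4657 counts in mei-p26, 67 and 106 in wh7, and 9 and 4 in w1118.

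The miR-972 to miR-979 cluster summed to 53.3 to 101 CPM in mei-p26, 4.50 to 27.3 CPM in wh7 and 273 to 321 CPM in w1118. In counts this was 13 and 29 in mei-p26, 4 and 1 in wh7, and 43 and 38 in w1118. Within it, miR-978-3p had 2 and 4 counts in mei-p26, 2 and 0 in wh7, and 30 and 26 in w1118. miR-978-5p had 0 and 2 in mei-p26, 0 and 0 in wh7, and 9 and 8 in w1118. These arms of miR-978 made up most of the w1118 counts but a minority of those in mei-p26. The sum therefore does not give the direction of the other members. The miR-959 to miR-964 cluster, at 825 to 1098 CPM, was thus the most abundant of these 4 groups in each w1118 library, and in each wh7 library too. In mei-p26 it lay below the miR-303 and miR-991 groups. The difference in response between the clusters was not tested.

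**Figure D4:**
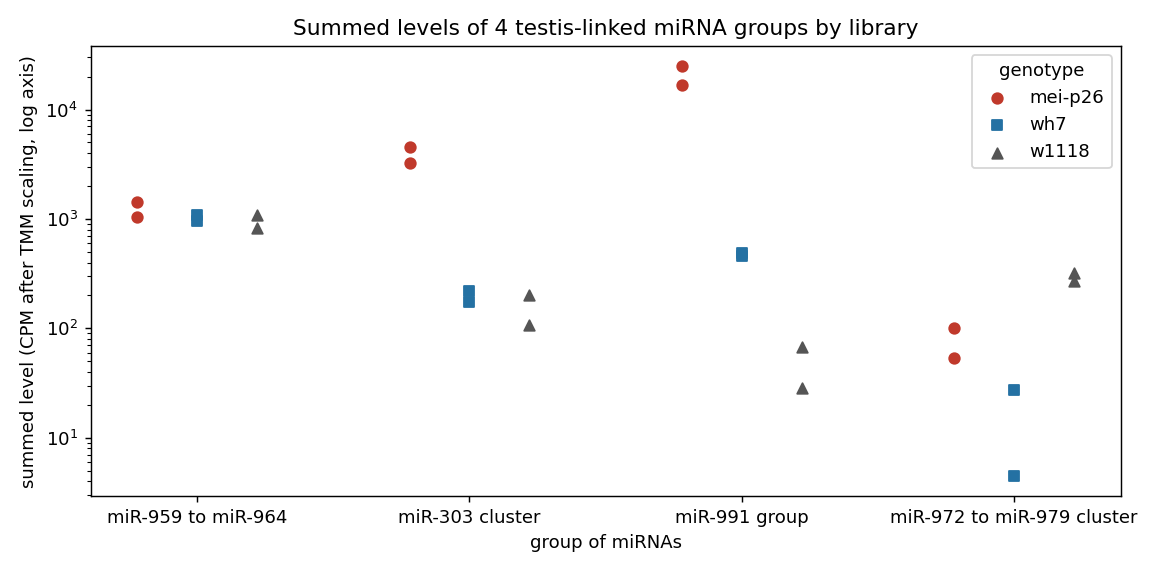
Summed level of 4 testis-linked miRNA groups in each library, in CPM after TMM scaling on a log axis, each mature arm counted once. The miR-959 to miR-964 cluster stayed between 825 and 1429 CPM over all 6 libraries, while the miR-303 cluster was at 3228 to 4513 CPM in mei-p26 and 108 to 202 CPM in w1118.

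The 7 tested arms varied together across the 6 libraries only in part. Of 21 pairs of arms, 19 had a Pearson correlation of log2 CPM above 0, with a median of 0.47 and a range of -0.10 to 0.89. The 6 libraries differ in depth and genotype, which all arms of a library share. miR-961-5p (r = 0.87) and miR-959-5p (0.85) followed the sum most closely, and miR-960-5p least (0.38). The sum includes the arm itself, which raises these values, so they cannot be set beside those of rows outside the cluster. Outside the cluster, the rows most like the summed level were miR-984-3p (r = 0.81), miR-316-5p (0.81), miR-988-5p (0.78), miR-317-5p (0.76) and miR-1-3p (0.75). These values describe 6 libraries and carry no test.

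Among them miR-1-3p is the defining muscle miRNA. The muscle list of 4 arms, 3 of them detected in each library, summed to 22653 to 27629 CPM in mei-p26, 23114 to 24097 CPM in wh7 and 11001 to 16874 CPM in w1118. miR-1-3p was higher in mei-p26 than in w1118 by 0.85 ± 0.25 (edgeR adjusted p = 0.0106) and in wh7 by 0.76 ± 0.25 (adjusted p = 0.0386) on the log2 scale. The other defining muscle miRNA, miR-133, had 1 to 3 counts per library on its 3p arm and 0 on its 5p arm. The gut and Malpighian tubule list, both arms of miR-281, was at 238 to 309 CPM in mei-p26, 3939 to 4674 CPM in wh7 and 2114 to 2352 CPM in w1118. The part of other tissues in the cluster's level was not tested.

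The authors' deposited table gave adjusted p-values of 0.532 to 0.991 for the 12 arms in mei-p26 against w1118 and of 0.895 to 0.973 for the 11 with a value in wh7 against w1118. It thus called 0 arms at 0.05 in either comparison. Its smallest values in each belonged to miR-961-5p, with a signed fold change in the authors' deposited table of 4.14 in mei-p26 and 2.61 in wh7 over w1118, on CPM without TMM scaling.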

How the data were processed

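Small RNA libraries of ovaries were made with the QIAseq miRNA kit, which adds unique molecular identifiers, per the labels' protocols. The submitters' processing notes name bcl2fastq 2.20, Trimmomatic and BDGP5 as the build. The sources used here give no aligner, counting tool, miRNA annotation or collapsing of identifiers, so PCR copies may be counted. Whole-number counts per mature arm were deposited, headed raw reads per the file headers, with control columns headed W118, taken as w1118. The deposited CPM values were the counts scaled to their column totals (within 0.00500) and were not tested. The authors' signed fold changes, a score, and the authors' p-values come from a test not given in the sources used here. No coordinates are printed, since the annotation at hand is of BDGP6; its gene table matched 6 of 6 precursors by name.

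All 474 rows were read, 150 were kept by filterByExpr (minimum count 10), and edgeR 4.0.16 (R 4.3.3) fitted all 6 libraries with TMM scaling, factors 0.877 to 1.16, and 3 residual degrees of freedom. The quasi-likelihood test was two-sided, with Benjamini-Hochberg adjustment over all rows tested and a threshold of 0.05. The SE, which is approximate, divides the log2 fold change by the root of F. Likeness used log2 CPM with a prior count of 2. Replicates of a genotype differed by more than sampling noise. Alternatives were other scalings, filters, tools (DESeq2 1.42.0, limma-voom 3.58.1), a replicate block, fewer groups and each library left out. The members, the lists and the rule for named miRNAs (all 12 arms, the 5 rows most alike, up to 2 arms of each comparison list, and the tissue markers) were chosen with earlier results of these data known.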

Additional observations from a re-analysis of the deposited data

How the results depend on the processing

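The count of member arms called in mei-p26 over w1118 was 0, and 1 with total-count scaling; leaving out each library gave 0 to 2, the highest without mei-p26 replicate 1. In mei-p26 over wh7 it was 0, and 0 to 1 with each library left out, again the highest without mei-p26 replicate 1. In wh7 over w1118 it was 0 under every alternative run. The cause of these changes was not tested. Total-count and upper-quartile scaling moved the median log2 fold change of all rows by 0.27 and -0.23 in mei-p26 over w1118 and by 0.19 and -0.16 in mei-p26 over wh7. The sign of miR-962-5p turned in mei-p26 over w1118 with total-count scaling (0.27) and limma-voom (0.0083), in wh7 over w1118 with total-count scaling (0.055), and in mei-p26 over wh7 with upper-quartile scaling (-0.14), no filter (-0.0066) and only the groups compared (-0.11). miR-963-5p turned in mei-p26 over wh7 with total-count scaling (0.19) and a mean count of at least 20 (0.024), a filter that left 3 member arms. With each library left out, signs also turned for miR-959-5p (-0.22 to 1.88 in mei-p26 and -1.41 to 0.78 in wh7 over w1118), miR-962-5p (-0.48 to 0.30 in mei-p26 over w1118, -0.47 to 0.41 in wh7 over w1118, -0.32 to 0.24 between the mutants) and, between the mutants, miR-963-5p (-0.40 to 0.18) and miR-961-5p (-0.52 to 0.95). Of the values not named here, 284 log2 fold changes kept their sign and their side of the threshold. Total-count and RLE scaling moved the summed level of each genotype by less than 1 SD between its libraries. Over all rows, wh7 over w1118 had 23 calls, 12 without mei-p26 replicate 2, 14 without wh7 replicate 1 and 13 without wh7 replicate 2. Equal replicate numbers do not mark shared flies or batches in the labels. Differences between replicates 1 and 2 correlated across rows at -0.02 for mei-p26 and w1118, 0.09 for the mutants and -0.33 for wh7 and w1118. With a replicate block 0 member arms passed in each comparison, and all-row counts were 50, 41 and 26 for mei-p26 over w1118, mei-p26 over wh7 and wh7 over w1118. A crossed pairing of the last, chosen after seeing the data, gave 0 member arms and 30 rows. Depth limits precision, as single arms held 0 to 100 counts per library.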

Other observations

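For arms at 0 counts in w1118, the authors' deposited table held large fold changes. miR-962-3p was listed there at 218 in mei-p26 and 219.5 in wh7 over w1118, and miR-964-3p at 200.5 in mei-p26, each resting on 1 count in 1 mutant library. These values equal the authors' mean CPM of the mutant (2.18, 2.195 and 2.005) divided by 0.01.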
